A study of Mus musculus with 4 samples.

Results

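Cell cycle and DNA replication genes were measured as a set of 43 genes chosen by name: 18 that act in or before DNA synthesis (called S-phase genes), 20 that act in mitosis or mark dividing cells (called mitosis genes), and 5 D-type cyclins and their kinases (called G1 genes). The array carried 27573 named genes, and all 43 had at least 1 probe, with 71 of its 41174 non-control probes on 98 spots. A probe entered the test if 1 genotype or both exceeded background clearly on every array, by the scanner's own mark, and 64 of the 71 probes did so. All 43 genes kept a tested probe, and the probe standing for each gene was well above background in both genotypes on all 4 arrays. No spot of these genes was saturated or marked as an outlier.

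The tissue was the posterior end of mouse embryos at 5/6 somites, taken behind the last somite boundary, from Cdx2+/-Cdx4-/- mutants and from wildtype. Cdx2 and Cdx4 are caudal-type homeobox transcription factors of the posterior embryo, and the mutants carry 1 wildtype Cdx2 allele and no wildtype Cdx4 allele. Each RNA came from a pool of 10 embryos, so the spread between single embryos is not in the data. Mutant and wildtype RNA were hybridised together on each of 4 Agilent 2-colour arrays, labelled as replicate 1 (array 1), its dye swap (array 2), replicate 2 (array 3) and its dye swap (array 4). Whether the replicates are separate pools is not in the labels. The p-values cover only the spread between arrays, which may be technical and may hold effects of the dye.

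The direction of the ratios is not settled, because the arrays conflict with their labels. By the labels the mutant RNA was in Cy5 on arrays 1 and 3 and in Cy3 on arrays 2 and 4. For the Cdx4 probe the log2 ratio of Cy5 to Cy3 was -2.59, -2.11, 2.82 and 2.42 on arrays 1 to 4. Over all probes, arrays 1 and 3 correlated at r = -0.36 and arrays 2 and 4 at r = -0.38, although the labels give each of these pairs the same dyes. Every array was therefore turned so that its Cdx4 ratio was negative, and the resulting aligned ratio is written as mutant over wildtype. The aligned sign is that of the labels on arrays 1 and 4 and the opposite on arrays 2 and 3, so it opposes the authors' series table there. The Cdx4 ratio set the direction and is no finding, and with all signs turned every lower call below becomes a higher one. Over the 43 genes, aligned ratios correlated at r = 0.86 between arrays 1 and 2 and at 0.93 between arrays 3 and 4, but at 0.24 to 0.40 between an array of the first pair and one of the second. These correlations are across genes, which share their arrays and are no replicates.

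A cell enters division in steps that different genes serve. Cyclin D with Cdk4 or Cdk6 acts in G1 to release E2F transcription factors from the retinoblastoma protein, and E2F then raises cyclin E and the genes of DNA synthesis. Before synthesis, Cdc6 and Cdt1 load the MCM helicase at replication origins, and geminin prevents loading again. Genes of mitosis are transcribed later in the cycle, and many are held back in resting cells through a promoter element called CHR. The posterior end of the embryo at this stage holds dividing progenitor cells that lengthen the body axis.

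In the aligned direction 4 of the 43 genes fell in the mutant and 0 rose. The mitosis genes Cenpe, Cenpf and Mki67 were 1.47-fold, 1.35-fold and 1.33-fold lower, and the G1 kinase gene Cdk6 was 1.26-fold lower on 1 of its probes. No S-phase gene passed the test. The mitosis genes lay below 0 as a class on every array, with a median aligned log2 ratio between -0.15 and -0.059, while the median of the S-phase genes lay between -0.041 and -0.012.

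The test was limma's moderated test on log2 ratios, with arrays 1 and 2 averaged as 1 replicate and arrays 3 and 4 as the other, called here the labelled-number pairing, and with adjusted p under 0.05 over all 14875 genes tested. After alignment the mutant is in the same dye on both arrays of each value, so the spread between values also holds any dye effect. In this pairing 4.32% of all genes were lower and 3.23% higher, beside 4 and 0 of the 43. At an unadjusted p under 0.05 there were 8 of the 43, beside 2818 of the 14875 genes tested. Of these 8 genes 7 were lower. A different pairing averages arrays 1 with 3 and 2 with 4, which balances the dyes within each value and is called the exchange pairing. In the exchange pairing 13 of the 43 were lower and 4 higher, where 19.5% of all genes were lower and 22.6% higher. Its standard error was 0.051 for nearly every gene, so a gene's own spread hardly enters its calls. With each array signed by its own label, 0.2% of all genes were called in either direction and 0 of the 43. An unadjusted p under 0.05 in limma was then found for 0 of the 43, beside 286 of the 14478 genes tested.

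**Figure D1:**
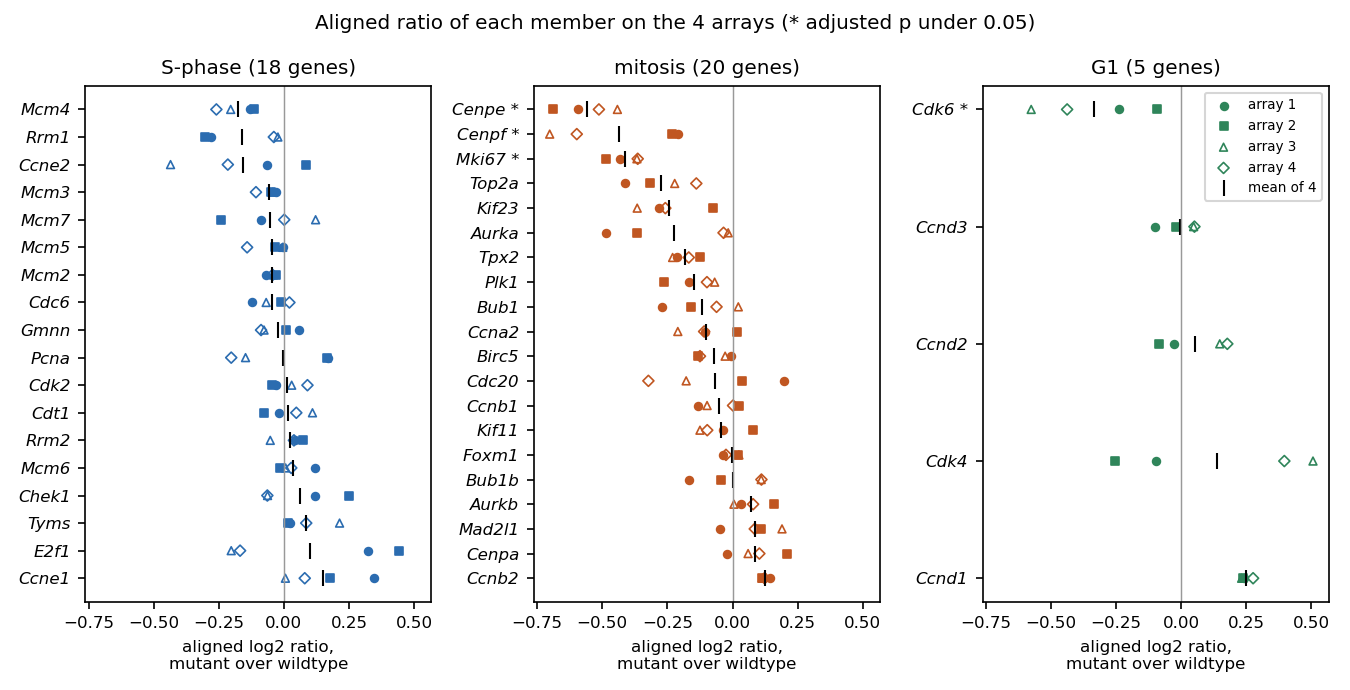
Aligned log2 ratio (x axis, mutant over wildtype) of each of the 43 genes on arrays 1 to 4, with S-phase, mitosis and G1 genes in separate panels; black ticks mark the mean of the 4 arrays and stars the genes with adjusted p under 0.05 in the labelled-number pairing. Cenpe, Cenpf and Mki67 lie below 0 on all 4 arrays, while genes such as Cdk4 and E2f1 lie on opposite sides of 0 on arrays 1 and 2 and on arrays 3 and 4.

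Of the 5 G1 genes, Cdk6 was lower and the others did not pass. Cdk6 encodes a partner kinase of the D cyclins, and its aligned log2 ratios were -0.24, -0.09, -0.58 and -0.44 on arrays 1 to 4. Its scanner-processed intensity was 1825 to 2248 in the mutant and 2487 to 2683 in wildtype, so the ranges over arrays did not overlap. The share of all genes with such separate ranges is not given here. The mean was -0.34 ± 0.10 (SE, n = 2 replicates of 2 arrays; adjusted p = 0.0468). This probe was designed on a cDNA clone and lies on chromosome 5 at 3535293 to 3535352 (mm8), 7618 bases beyond the nearest Cdk6 probe on a RefSeq transcript. The tested RefSeq probe for Cdk6 had ratios of -0.13, -0.04, -0.16 and -0.03 (adjusted p = 0.73 in the fit over probes). In limma's fit over probes the probe on the cDNA clone had an adjusted p of 0.064, so neither probe passed there. The Cdk6 call therefore holds for that 1 probe and only in the fit over genes. It ended on leaving out any of the 4 arrays. It also ended without background correction, with scanner-processed signals and with the mean over probes.

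Ccnd1, which encodes cyclin D1, had nearly the same value on every array. Its aligned ratios were 0.24, 0.24, 0.23 and 0.28, and its 10 spots had an SD of 0.057 to 0.077 within an array. Its intensity was 4067 to 4646 in the mutant and 3359 to 3894 in wildtype, without overlap. Here too the share of all genes with such ranges is not given. The mean of 0.25 ± 0.098 (SE, n = 2) had an adjusted p of 0.147 in the labelled-number pairing and of 7.84e-06 in the exchange pairing. The 4 values of Ccnd1 span less than its standard error, which limma moderates toward that of other genes.

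Cdk4, the other kinase of the D cyclins, differed in sign between the array pairs. Its aligned ratios were -0.10 and -0.25 on arrays 1 and 2 and 0.51 and 0.40 on arrays 3 and 4. Before alignment its Cy5 over Cy3 ratio was therefore below 0 on all 4 arrays, and its mean of 0.14 ± 0.12 (SE, n = 2) had an adjusted p of 0.6. Ccnd2 and Ccnd3, which encode cyclins D2 and D3, showed the same split with smaller values: -0.029, -0.084, 0.15 and 0.18 for Ccnd2, and -0.10, -0.020, 0.048 and 0.051 for Ccnd3.

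None of the 18 S-phase genes passed in limma's labelled-number pairing. An unadjusted p under 0.05 was found for 0 of them, beside 2818 of the 14875 genes tested. In the exchange pairing 3 were lower and 1 was higher, where 19.5% of all genes were lower and 22.6% higher. Their mean ratios ran from -0.18 to 0.15, 10 below 0 and 8 above. The MCM genes, which encode the subunits of the replicative helicase, had means of -0.176 for Mcm4, -0.057 for Mcm3, -0.051 for Mcm7, -0.046 for Mcm5, -0.045 for Mcm2 and 0.035 for Mcm6. Mcm4 was the lowest S-phase gene, with ratios of -0.13, -0.11, -0.20 and -0.26 (adjusted p = 0.353, and 0.002 in the exchange pairing). The other helicase genes lay closer to 0 and passed in neither pairing.

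Rrm1, the large subunit of ribonucleotide reductase, had -0.28, -0.30, -0.023 and -0.038, so its low values came from arrays 1 and 2. Its partner subunit Rrm2 had 0.042, 0.072, -0.052 and 0.039, on either side of 0. Tyms, thymidylate synthase, had 0.024, 0.015, 0.21 and 0.086 and a mean of 0.085 ± 0.099 (SE, n = 2; adjusted p = 0.739). The genes that make nucleotides for synthesis therefore shared no direction.

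The cyclin E genes, whose products activate Cdk2 at the start of synthesis, had opposite means. Ccne1 had 0.35, 0.18, 0.0061 and 0.080, a mean of 0.15 ± 0.10 (SE, n = 2; adjusted p = 0.46, and 0.00872 in the exchange pairing). Ccne2 had -0.064, 0.085, -0.44 and -0.22, a mean of -0.16 ± 0.10 (SE, n = 2; adjusted p = 0.457, and 0.00631 in the exchange pairing). The high values of Ccne1 were on arrays 1 and 2, and the low values of Ccne2 on arrays 3 and 4.

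The licensing genes were near 0: Cdc6 had a mean of -0.045, Cdt1 of 0.016 and Gmnn, which encodes geminin, of -0.024. Pcna, the sliding clamp of the polymerases, had 0.17, 0.17, -0.15 and -0.20, with 10 spots on each array. E2f1 had 0.32, 0.44, -0.20 and -0.17. Before alignment both genes were higher in Cy5 than in Cy3 on every array, and their aligned ratio changed sign between arrays 1 and 2 and arrays 3 and 4. After alignment, arrays 1 and 2 share a dye orientation and a replicate number, as do arrays 3 and 4, so an effect of the dye and a difference between replicates cannot be told apart. Such a change of sign was seen in 7 of the 18 S-phase genes, 3 of the 5 G1 genes and 2 of the 20 mitosis genes, and in 21.8% of all genes tested. Chek1, the checkpoint kinase gene, and Cdk2 were among them, with means of 0.061 and 0.012.

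Of the 20 mitosis genes 3 fell and 0 rose, where 4.32% of all genes were lower and 3.23% higher. Cenpe encodes a kinesin that carries chromosomes to the spindle equator, and it had the largest ratio of the 43 genes, at -0.59, -0.69, -0.44 and -0.51. Its intensity was 15800 to 17360 in the mutant and 23040 to 25960 in wildtype. The mean was -0.56 ± 0.10 (SE, n = 2; adjusted p = 0.000554). The intensity ranges of mutant and wildtype over the arrays did not overlap, and the share of all genes with such ranges is not given here.

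Cenpf, a protein of the outer kinetochore, had ratios of -0.21, -0.23, -0.70 and -0.60. Its intensity was 5797 to 7878 in the mutant and 9073 to 9534 in wildtype. The mean was -0.44 ± 0.11 (SE, n = 2; adjusted p = 0.0106). All 4 arrays gave a lower mutant value, and the difference was larger on arrays 3 and 4 than on arrays 1 and 2.

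Mki67 encodes Ki-67, a protein of dividing cells that coats mitotic chromosomes. Its ratios were -0.43, -0.48, -0.37 and -0.36, and its intensity was 12980 to 13850 in the mutant against 17070 to 19050 in wildtype. The mean was -0.41 ± 0.099 (SE, n = 2; adjusted p = 0.00871). Of the called genes it varied least between arrays.

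These calls depend on settings that reached all genes. Cenpe kept its call on leaving out any single array, Mki67 lost it without array 1 or array 2, and Cenpf lost it without array 1, 2 or 3. The mean over all tested probes of a gene ended the calls of Cenpe, at -0.30, and of Cenpf, at -0.32, and kept that of Mki67, while scanner-processed signals ended those of Cenpf and Mki67. With no filter on dim probes, 27573 genes were tested and 0 of the 43 passed in limma. At an unadjusted p under 0.05 were 9 of the 43, beside 3721 of the 27573. When median centring replaced loess, limma called 0 of the 43, and Cenpe, Cenpf, Mki67 and Cdk6 changed sign. Without adjustment of p, 0 of the 43 were under 0.05, beside 580 of the 14875 genes tested.

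A further 6 mitosis genes were not called in the labelled-number pairing but were lower in other settings. These were the exchange pairing, the third pairing of the arrays (1 with 4, 2 with 3), and 4 arrays with a dye term. Of all 14875 genes tested, 2900, 3730 and 3129 were lower in these settings. They use the same 4 array values and the same means, so they are no separate evidence. Top2a, which encodes the topoisomerase that untangles sister DNA, had -0.41, -0.32, -0.22 and -0.14 (adjusted p = 0.106 in the labelled-number pairing). Kif23, a kinesin of the central spindle, had -0.28, -0.074, -0.37 and -0.26 (adjusted p = 0.155). Aurka, the spindle pole kinase Aurora A, had -0.49, -0.37, -0.017 and -0.035 (adjusted p = 0.24). The low values of Aurka therefore came from arrays 1 and 2, unlike those of Kif23. Tpx2, the activator of Aurora A, had a mean of -0.18, Plk1, a kinase of mitotic entry and exit, of -0.15, and Bub1, a spindle checkpoint kinase, of -0.12.

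At the other end, Ccnb2, which encodes cyclin B2, was higher by a small and even amount. Its ratios were 0.15, 0.11, 0.11 and 0.12, with a mean of 0.12 ± 0.098 (SE, n = 2; adjusted p = 0.567, and 0.0368 in the exchange pairing). Its intensity was 13740 to 17650 in the mutant and 12810 to 15380 in wildtype, so the ranges over arrays overlapped. Cenpa, the histone variant of the centromere, had -0.022, 0.21, 0.060 and 0.10, and Mad2l1, of the spindle checkpoint, had -0.048, 0.11, 0.19 and 0.085. Neither passed in the labelled-number or the exchange pairing, with means of 0.088 and 0.084. Cenpa was higher in the third pairing, as were 4458 of the 14875 genes tested.

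The remaining mitosis genes lay between these. Cyclin A2 (Ccna2) had a mean of -0.10, survivin (Birc5) of -0.072, the anaphase activator Cdc20 of -0.067, cyclin B1 (Ccnb1) of -0.052 and the spindle kinesin Kif11 of -0.045. Foxm1, a transcription factor of mitosis genes, had -0.0034, Bub1b 0.0017 and Aurkb, the Aurora B kinase, 0.069. None of these 8 passed in the labelled-number or the exchange pairing. Ccna2 was lower in the third pairing, as were 3730 of the 14875 genes tested. In all, 15 of the 20 mitosis genes had a mean below 0 and 9 were below 0 on all 4 arrays, against 10 and 5 of the 18 S-phase genes. Among all genes tested 45.4% had a mean below 0 and 19.6% were below 0 on all 4 arrays.

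The comparison of S-phase with mitosis genes was then made array by array. The median aligned log2 ratio of the mitosis genes was -0.15, -0.059, -0.083 and -0.098 on arrays 1 to 4. That of the S-phase genes was -0.012, -0.014, -0.041 and -0.041, and that of all genes tested was 0.0077, 0.045, -0.017 and 0.0012. The S-phase median exceeded the mitosis median on 4 of 4 arrays, by 0.14, 0.046, 0.042 and 0.057. These are differences of medians over genes, with no test.

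Both classes hold brighter probes than the array as a whole, and loess-normalised ratios can still drift with brightness. The median brightness was 13.8 for S-phase and 12.3 for mitosis genes, against 9.52 for all genes tested (mean log2 intensity of the 2 channels). Each ratio was therefore set against the median of the genes in the same 1 of 20 brightness bins. The mitosis medians became -0.12, -0.13, -0.089 and -0.087, and the S-phase medians -0.027, -0.018, -0.043 and -0.014. The gap between the classes was then 0.097, 0.11, 0.046 and 0.073, above 0 on all 4 arrays and of the same order as before. Among genes of equal brightness to the mitosis genes 4.05% were called lower, beside 3 of 20, and for the S-phase genes it was 3.47%, beside 0 of 18. In the exchange pairing the shares were 20.8% beside 9 of 20 mitosis genes and 20.6% beside 3 of 18 S-phase genes.

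**Figure D2:**
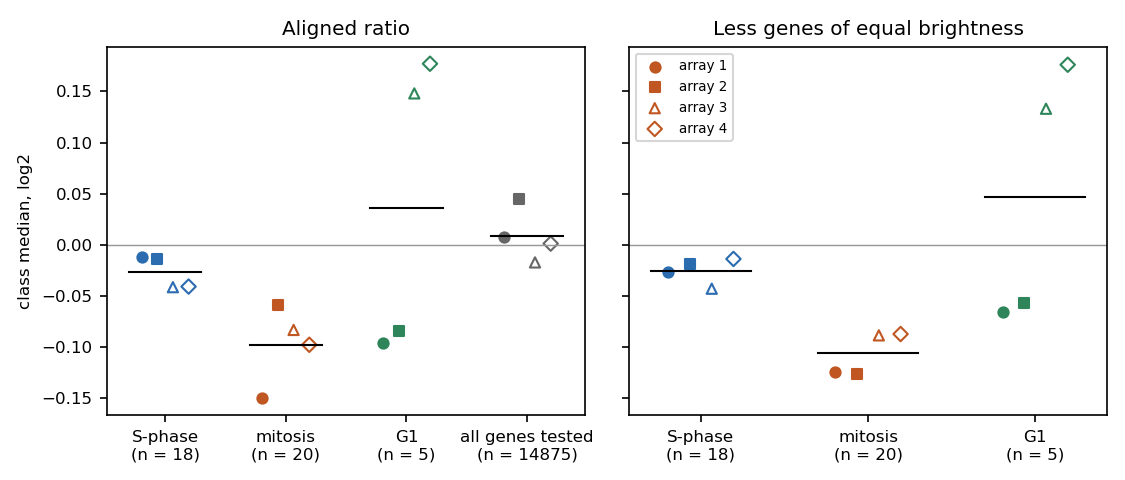
Median log2 ratio of each class on arrays 1 to 4 (y axis), as the aligned ratio at the left and after subtracting genes of equal brightness at the right; black bars mark the mean of the 4 arrays. The mitosis medians lie below the S-phase medians on each array, and the G1 medians lie below 0 on arrays 1 and 2 and above 0 on arrays 3 and 4.

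**Figure D3:**
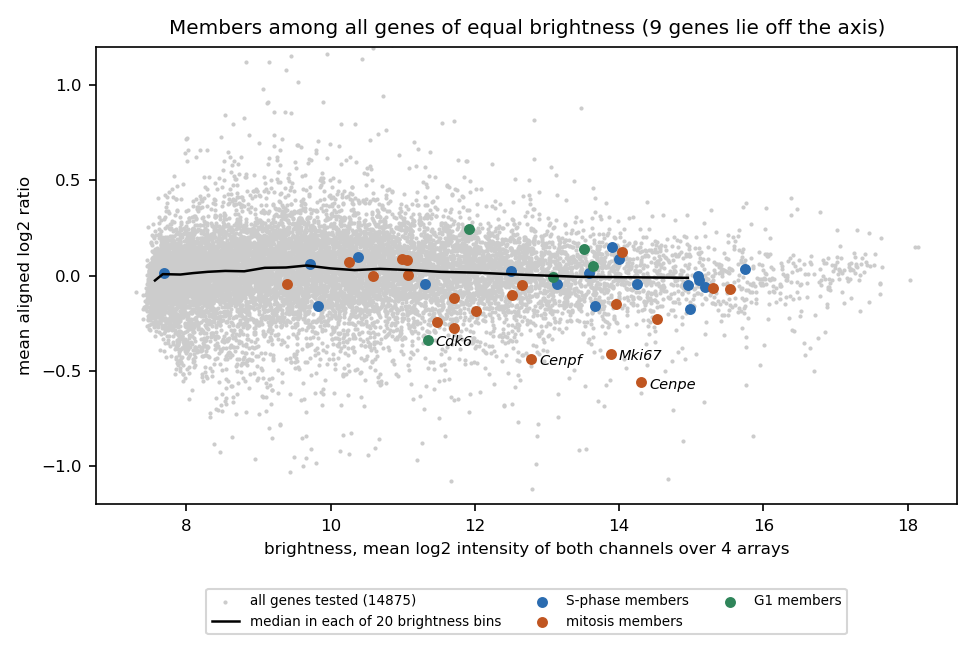
Mean aligned log2 ratio (y axis) against brightness (x axis, mean log2 intensity of both channels over 4 arrays) for all 14875 genes tested in grey and the 43 genes in colour, with the median of each of 20 brightness bins as a line; 9 genes lie off the axis. Cenpe, Mki67, Cenpf and Cdk6 lie below most genes of their brightness, and the other S-phase, mitosis and G1 genes lie within the bulk.

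The G1 genes gave no steady median. It was -0.096 and -0.084 on arrays 1 and 2 and 0.15 and 0.18 on arrays 3 and 4, with 3 of the 5 genes changing sign between these pairs.

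Of the 43 genes 17 had more than 1 tested probe, and for 14 of these all tested probes had means over the arrays of the same sign. That count includes E2f1 and Ccnd2, whose probes had opposite signs on single arrays. The exceptions were S-phase genes: Cdc6 (means of -0.045 and 0.049), Mcm3 (-0.057 and 0.0033) and Tyms (0.085, 0.059 and -0.043). The signs of their means therefore hold for single probes. The second Mki67 probe lies 4421 bases upstream on chromosome 7 and gave -0.47, -0.32, -0.49 and -0.34, close to the first (adjusted p = 0.014 in the fit over probes). For Cenpe, on chromosome 3, the 3′-most probe was the brightest and had the largest ratio. The probe 2784 bases upstream gave -0.43, -0.11, -0.30 and -0.31 (adjusted p = 0.0918), and the one 54813 bases upstream gave -0.23, -0.058, -0.069 and 0.11 (adjusted p = 0.847). Neither of the other Cenpe probes passed, and both are dimmer (brightness 9.24 and 8.13 against 14.3), so position and brightness cannot be told apart.

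For Cenpf, on chromosome 1, the second probe is the 3′-most and the dimmer (brightness 8.25 against 12.8), and gave -0.24, -0.061, -0.36 and -0.12 (adjusted p = 0.298), below 0 on every array but with a smaller mean than the first. The second tested Top2a probe, 19117 bases upstream on chromosome 11, gave -0.086, 0.060, -0.10 and -0.13. The 2 Kif23 probes on chromosome 9 were alike, at means of -0.25 and -0.21. A second Kif11 probe, designed on a cDNA clone and dimmer (brightness 7.41 against 9.40), had a mean of -0.24 where the first had -0.045. It did not pass in the fit over probes (adjusted p = 0.198).

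The E2f1 probes lie 262 bases apart on chromosome 2. The brighter gave 0.32, 0.44, -0.20 and -0.17, and the other, printed on 10 spots, gave -0.29, -0.076, 0.26 and 0.10, the opposite sign on every array. The SD over its 10 spots was 0.032 to 0.064 within an array, so the conflict is larger than the spread between spots. For Ccnd2, the 3′-most probe gave 0.11, 0.10, -0.078 and -0.021, again opposite in sign on every array to the probe that stands for the gene. The remaining Ccnd2 probe gave -0.058, -0.065, 0.21 and 0.20, with the sign of the standing probe on every array. The means of these probes were all above 0, at 0.00078 and 0.099 for E2f1 and 0.028, 0.053 and 0.071 for Ccnd2, so the conflict shows only array by array.

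**Figure D4:**
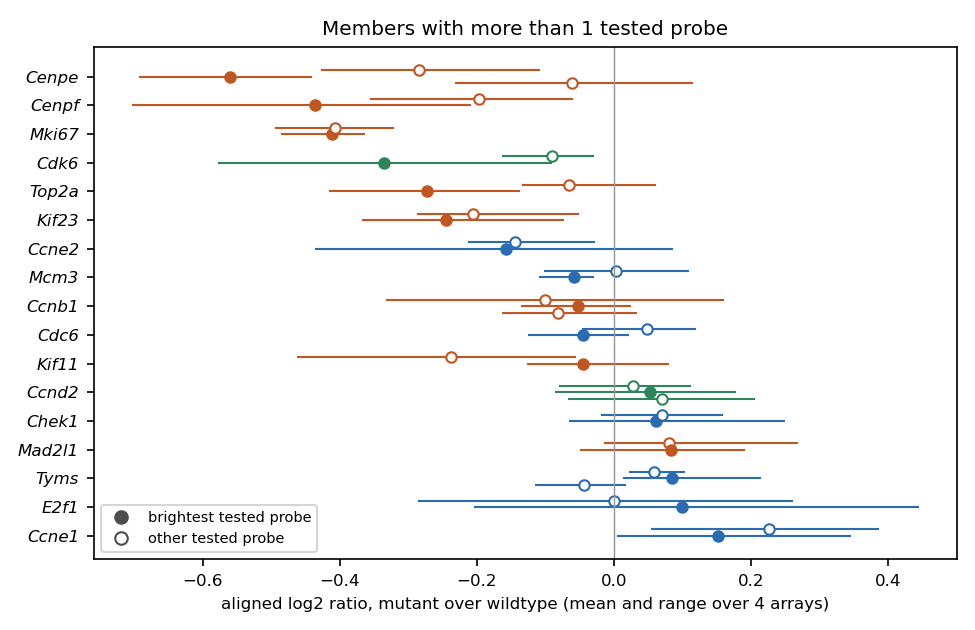
Mean (points) and range over the 4 arrays (lines) of the aligned log2 ratio (x axis) for every tested probe of the 17 genes with more than 1, with the brightest tested probe filled and other tested probes open. The Mki67 probes lie together at -0.41, while the Cenpe probes spread from -0.56 to -0.061 and the E2f1 probes span 0.

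The other genes of the pathway were read from longer lists. Of 43 further replication genes 0 were lower and 1 higher in the labelled-number pairing, where 4.32% of all genes were lower and 3.23% higher. In the exchange pairing 3 were lower and 12 higher, where the shares of all genes were 19.5% and 22.6%, and the median was 0.040. The gene that rose was Rfc3, a subunit of the clamp loader, at 0.38, 0.50, 0.55 and 0.48, with a mean of 0.48 ± 0.099 (SE, n = 2; adjusted p = 0.00255). It was higher on all 4 arrays, unlike its partner clamp gene Pcna.

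Of 37 further mitosis genes 2 were lower, near the 4.32% of all genes, and 0 higher. In the exchange pairing 15 were lower and 1 higher, beside 19.5% and 22.6% of all genes, and the median was -0.075. Smc4, a core subunit of the condensin complexes that compact chromosomes, had -0.45, -0.45, -0.76 and -0.81, and its mean was -0.62 ± 0.10 (SE, n = 2; adjusted p = 0.000285). Cdc25a, a phosphatase that activates cyclin-dependent kinases, had -0.41, -0.18, -0.42 and -0.25, with a mean of -0.32 ± 0.098 (SE, n = 2; adjusted p = 0.0486). The median over all genes tested was 0.015, so the further mitosis genes lay below it and the further replication genes above it. These medians carry no test.

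Of 23 tested CDK inhibitors, retinoblastoma, E2F and Myc family genes, 1 was lower, near the 4.32% of all genes, and 0 higher. In the exchange pairing 8 were lower and 1 higher, beside 19.5% and 22.6% of all genes, and the median was -0.034. Cdkn1c, which encodes the CDK inhibitor p57, had -0.44, -0.42, -0.53 and -0.49, with a mean of -0.47 ± 0.099 (SE, n = 2; adjusted p = 0.00307). Cdkn2a, Cdkn2b and Rbl2 did not pass the filter on dim probes and have no value here.

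Markers of cell types were read in the same contrast, and not every list moved in 1 direction. All 7 markers of the posterior embryo were tested, with Wnt3a higher and Cyp26a1 lower, and their summed intensity in the mutant was 1.01 to 1.10 times that of wildtype. All 11 visceral endoderm markers were lower, at a summed intensity of 37600 to 44700 in the mutant against 81620 to 98740 in wildtype, a ratio of 0.43 to 0.46. Of 7 endothelial markers 4 were lower, with a summed ratio of 0.59 to 0.60, and of 3 tested trophoblast markers 2 were lower and 1 higher, with a ratio of 0.61 to 0.67. The 3 tested primitive erythroid globins were higher, with a summed ratio of 2.49 to 3.21, and their regulators Gata1 and Klf1 did not pass the filter, nor did the trophoblast marker Tpbpa. No probe bore the name of the trophoblast marker Psx1. The part of these cell types in the lower Cenpe, Cenpf, Mki67 and Cdk6 values was not tested. In pooled tissue, fewer cells of a type and less RNA per cell cannot be told apart.

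Promoters were examined because the S-phase and mitosis genes differ in the elements they are known to carry. RefSeq promoter windows on GRCm38.p6, from 250 bases before to 50 after a transcript start, matched 34 of the 43 genes by symbol: 15 S-phase, 16 mitosis and 3 G1 genes. They were searched on both strands for E2F motifs (TTTCGCGC, TTTGGCGC, TTTCCCGC or TTTGCCGC), for CHR (TTTGAA) and for CCAAT, the site of the factor NF-Y. The 6 windows below are those of the 4 called genes, of Mcm6 for its E2F motifs and of Ccnb2 as a mitosis gene with CHR and a positive ratio. Each reads 5′ to 3′ along the gene's strand, with motifs in capitals; ATTGG is CCAAT on the other strand. They are Cenpf at chr1:189688037-189688336 (minus strand), Mki67 at chr7:135716330-135716629 (minus), Ccnb2 at chr9:70421505-70421804 (minus), Cenpe at chr3:135212313-135212612 (plus), Mcm6 at chr1:128359656-128359955 (minus) and Cdk6 at chr5:3343643-3343942 (plus).
Cenpf: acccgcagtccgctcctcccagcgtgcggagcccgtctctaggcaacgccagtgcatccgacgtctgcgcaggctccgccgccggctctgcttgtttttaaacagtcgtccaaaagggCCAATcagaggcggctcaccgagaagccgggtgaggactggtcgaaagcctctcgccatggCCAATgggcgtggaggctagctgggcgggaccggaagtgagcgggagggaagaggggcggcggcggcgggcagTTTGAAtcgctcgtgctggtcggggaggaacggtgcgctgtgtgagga
Mki67: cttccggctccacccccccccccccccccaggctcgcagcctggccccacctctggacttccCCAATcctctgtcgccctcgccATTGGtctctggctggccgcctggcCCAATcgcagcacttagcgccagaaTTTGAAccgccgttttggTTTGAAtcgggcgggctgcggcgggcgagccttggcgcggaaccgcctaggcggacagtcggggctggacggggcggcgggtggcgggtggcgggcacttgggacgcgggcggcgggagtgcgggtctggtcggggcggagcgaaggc
Ccnb2: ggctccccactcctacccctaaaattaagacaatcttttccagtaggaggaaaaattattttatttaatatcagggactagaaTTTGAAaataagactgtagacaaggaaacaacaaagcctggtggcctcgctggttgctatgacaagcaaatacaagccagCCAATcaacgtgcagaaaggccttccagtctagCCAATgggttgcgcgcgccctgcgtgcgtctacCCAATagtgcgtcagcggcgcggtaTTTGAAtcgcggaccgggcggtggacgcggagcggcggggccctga
Cenpe: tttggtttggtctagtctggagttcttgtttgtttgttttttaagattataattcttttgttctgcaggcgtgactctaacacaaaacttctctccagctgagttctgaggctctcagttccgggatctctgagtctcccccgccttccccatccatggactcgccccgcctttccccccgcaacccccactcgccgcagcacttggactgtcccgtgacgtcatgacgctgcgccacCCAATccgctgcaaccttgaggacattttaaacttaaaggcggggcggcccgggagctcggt
Mcm6: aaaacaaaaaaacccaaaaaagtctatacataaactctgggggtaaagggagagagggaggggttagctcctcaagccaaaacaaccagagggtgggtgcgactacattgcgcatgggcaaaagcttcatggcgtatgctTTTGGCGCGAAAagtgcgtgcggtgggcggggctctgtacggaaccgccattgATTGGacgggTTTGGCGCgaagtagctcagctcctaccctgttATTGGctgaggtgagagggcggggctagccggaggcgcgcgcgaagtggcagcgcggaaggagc
Cdk6: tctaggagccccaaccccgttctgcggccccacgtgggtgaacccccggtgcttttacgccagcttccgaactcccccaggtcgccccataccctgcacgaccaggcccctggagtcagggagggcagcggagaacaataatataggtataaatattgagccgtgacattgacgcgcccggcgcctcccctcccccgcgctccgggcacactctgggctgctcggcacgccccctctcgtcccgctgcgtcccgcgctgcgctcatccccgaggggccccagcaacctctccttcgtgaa

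Cenpf and Mki67, called lower, and Ccnb2, not called and above 0, all hold CHR and CCAAT: 1 and 2 matches in Cenpf, 2 and 3 in Mki67, and 2 and 3 in Ccnb2. Cenpe, the gene with the largest ratio, holds 1 CCAAT and no TTTGAA in this window, and Cdk6 holds none of the motifs. CHR was searched as TTTGAA only, so other forms of the element were not looked for. Mcm6 holds 3 E2F matches and 2 CCAAT, with 2 of the E2F matches overlapping each other on opposite strands in 1 capital run. A match is a description of letters and does not show that a factor binds.

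Over the class, 11 of 16 mitosis promoters held CHR and 14 of 16 held CCAAT, while 1 and 9 of 15 S-phase promoters did. An E2F motif was in 7 of 15 S-phase promoters and 0 of 16 mitosis promoters. Among the promoters of all 27025 genes in the table, 2.6% held an E2F motif, 20.2% CHR and 41.1% CCAAT. The median ratio was -0.15 for the 11 mitosis genes with TTTGAA and -0.072 for the 5 without it. The ranges overlapped, from -0.44 to 0.12 and from -0.56 to 0.084. For the S-phase genes it was -0.045 for the 7 with an E2F motif and 0.043 for the 8 without. Within a class, then, the genes with the motif and those without it covered overlapping ratios.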

How the data were processed

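Per the submitters' processing notes, Agilent Feature Extraction 9.5.3 read the scans. Per the file headers, the authors' deposited files give the intensity of each spot as mean signal, median local background and a background-subtracted, dye-normalised processed signal, on an mm8 design. The authors' series table holds log10 ratios, which equalled the scanner log10 ratio on arrays 1 and 3 and its negative on arrays 2 and 4 for 100% of values (tolerance 1e-05), with a median of 0 per array.

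In R 4.3.3, limma 3.58.1 subtracted background (normexp, offset 50, which pulls ratios of dim probes toward 0) and normalised each array by loess, with a weight of 0 for control spots. Spots of a probe were averaged, without outlier spots. Well above background were 50.6% to 56.4% of spots in Cy3 and 58.9% to 64.9% in Cy5, and the number of arrays limits the precision. The brightest tested probe stood for a gene. The fit used lmFit and eBayes, with 1 residual and 24 prior degrees of freedom, and p-values were adjusted over 14875 genes by Benjamini-Hochberg. The fit was tested on simulated data with equal, independent noise for every gene and no dye effect. That check does not cover effects of the dye or values shared within an array pair.

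The 4 arrays were aligned by Cdx4 as the choice of genes laid down. The genes, lists, alignment and tests were chosen with earlier results of these data known. Values on all arrays were given for called genes and for the 3 highest and 3 lowest of each class, and from each longer list up to 2 called genes in each direction. In all 20 alternatives were run, 3 of them (arrays 1 and 4, arrays 2 and 3, and RefSeq probes only) added after the data were seen. Coordinates of probes are mm8 and those of promoters GRCm38.p6. Protein sequences and probe sequences were not used here.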

Additional observations from a re-analysis of the deposited data

Results flagged for a closer look

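The difference between the S-phase and mitosis medians was 0.138 on array 1, far from the 0.046, 0.042 and 0.057 of arrays 2, 3 and 4. It was marked because its gap to the nearest other array took up most of the range of the 4 values. It was the only 1 of 54 sets of 4 array values so marked, where chance marks about 1 in 20. After subtracting genes of equal brightness, array 1 gave 0.097 and array 2 gave 0.11.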

How the results depend on the processing

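With 4 arrays of 2 labelled replicates, the counts rest on the pairing and the direction. Against 4 lower and 0 higher of the 43 genes, the exchange pairing gave 13 and 4, the third pairing (arrays 1 with 4, 2 with 3) 14 and 7, and 4 arrays with a dye term 13 and 4. For all genes, against 643 lower and 480 higher, these gave 2900 and 3355, 3730 and 4458, and 3129 and 3805.

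Signed as labelled, 0 of the 43 passed and 26 genes were lower and 3 higher in all. The mitosis median was then -0.010, the gap between S-phase and mitosis medians 0.0062 and, at equal brightness, 0.0028, and Cenpe (0.0066), Cenpf (0.032) and Mki67 (0.014) changed sign. With median centring, the median of all genes was 0.28, those of the S-phase, mitosis and G1 genes were 0.52, 0.37 and 0.59, and the gap was 0.15, while at equal brightness it was 0.086. Cenpe (0.016), Cenpf (0.066), Mki67 (0.14) and Cdk6 (0.082) changed sign, 0 of the 43 passed, and 2 genes were lower and 6 higher. With no filter on dim probes 0 passed, and 4 genes were lower and 10 higher.

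Scanner-processed signals left 1 of the 43 lower (1033 of all genes), the ratios deposited for the series, turned to the alignment on arrays 2 and 3, left 2 (1049) and the mean over probes 1. The mitosis medians were -0.10 in both of the first, -0.11 over probes and -0.11 without background correction, and over probes the gap was 0.11. Arrays 1 and 4 alone gave 2 of the 43, with 381 lower and 237 higher genes. Arrays 2 and 3 alone gave 325 and 280, with a mitosis median of -0.075. The cause was not tested for any of these.

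Leaving out each array gave 1 to 3 of the 43, 116 to 568 lower genes and 138 to 384 higher genes. Leaving out an array or a whole replicate gave S-phase medians of -0.036 to -0.0045, mitosis medians of -0.11 to -0.080 and equal-brightness gaps of 0.053 to 0.11. Of the tested comparisons of single genes with another setting, 233 kept sign and side of the threshold, 28 lost the call, 24 gained one, 7 called values changed sign and 14 uncalled values did. Without a whole replicate there is no test, and 29 values kept their sign and 5 did not. The slide could not be used as a block because all 4 arrays lie on 1 slide. Mutant and wildtype are paired within each array, and every fit used that pairing.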
